A study of Mus musculus with 6 samples.

Results

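The DNA replication machinery is described here through 45 genes that copy the genome in S phase, out of 19938 genes measured by clusters with a single gene symbol. They were chosen by name, though with earlier results of these data known. Each is represented by the transcript cluster (the set of probes that reads 1 transcribed region) with the highest mean over all arrays. All 45 had such a cluster, and no filter on low values was applied, so all 45 were tested. Whole testes were taken from control and from knockout pups at postnatal day 15. The 6 RNA samples, 3 from control and 3 from knockout testes, were each read on 1 Affymetrix mouse gene array. The labels name no strain, and no promoter or cell type for the deletion, nor do they say whether a sample is 1 animal or a pool. They do not say that the replicates are separate animals either, so p-values reflect the spread among these samples alone, part or all of which could be technical.

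Replication begins when the origin recognition complex, with CDC6 and CDT1, loads the MCM helicase onto DNA before S phase, a step called licensing. The kinase CDC7 then helps to recruit CDC45 and the GINS complex, which turn MCM into an active helicase. Polymerase alpha with its primase starts each strand, polymerases delta and epsilon extend them on the PCNA clamp, and FEN1 and LIG1 trim and join the fragments. In the juvenile testis DNA is copied by dividing spermatogonia, by preleptotene spermatocytes in the last S phase before meiosis, and by dividing somatic cells. In whole-testis RNA, fewer cells of a type and less RNA per cell cannot be told apart.

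The arrays had medians of 8.075 to 8.1 (log2), and the lowest correlation between a pair of them was 0.9959. Of the 45 members, 42 lay above the array median on all 6 arrays. So did 14 of 14 Sertoli cell markers, 14 of 16 spermatogonial markers and 9 of 15 markers of pachytene spermatocytes, the most advanced germ cells of this age. With 3 arrays a group, precision is limited. Values below are RMA values on the log2 scale, and differences are knockout minus control.

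Replication genes were on the whole slightly lower in the knockout, by amounts of a few percent, and none passed the test across all clusters. Of the 45 genes 40 lay below the control mean and 5 above it, with a median difference of -0.073 (median fold 0.95) against 0.0033 over all clusters tested. The differences ran from -0.27 for Gins1 (fold 0.829) to 0.14 for Pola1 (fold 1.1), and 26 of the 45 were smaller than 0.1 in either direction. With limma and Benjamini-Hochberg adjustment over 21789 clusters, 0 members passed an adjusted p of 0.05, where 3 clusters in all (0.0138%) did. The smallest adjusted p among the members was 0.294.

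Before adjustment, 12 members (26.7%) were lower at a p under 0.05, against 6.45% of all clusters, and 0 were higher, against 4.1%. The count of 12 was 8 with each array centred on its own median (against 4.65% of all clusters) or without knockout replicate 3 (against 5.51%). It was 7 without control replicate 1 (against 6.15%) or without knockout replicate 1 (against 4.41%). In 16 members (35.6%) all 3 knockout values lay below all 3 control values, against 8.6% of all clusters. In 1 member all knockout values lay above all control values, against 6.73%. With centring the counts of separate groups were 13 lower and 2 higher among the members, against 5.76% and 11.1% of all clusters, and 36 of 45 genes lay below the control mean. The members were chosen with earlier results of these data known, so these counts are a description and no test over the list was made.

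**Figure D1:**
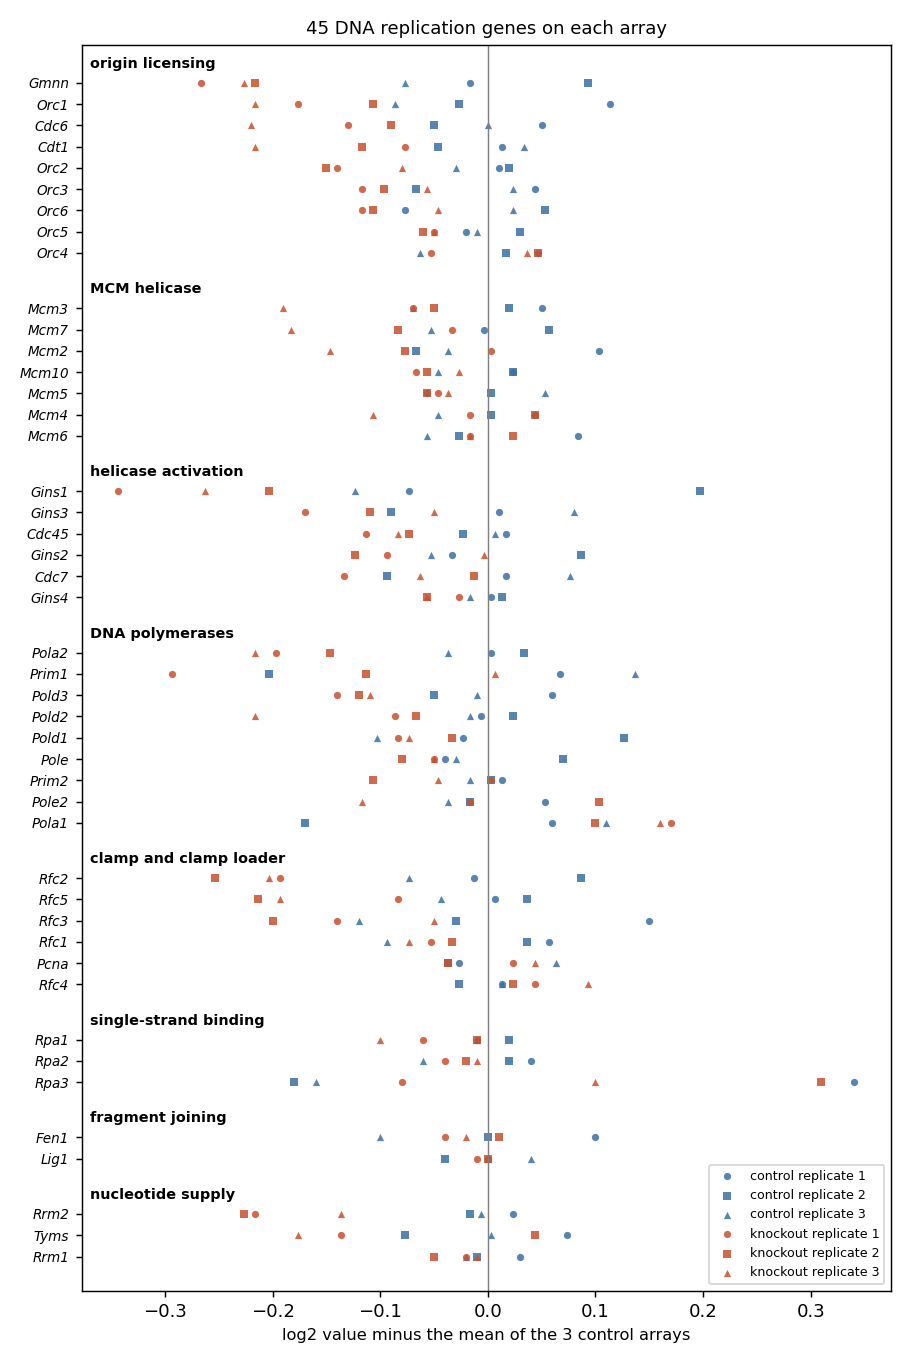
Log2 value of each of the 45 replication genes on each of the 6 arrays, minus the mean of the 3 control arrays (horizontal axis), grouped by role. Blue symbols are control and orange symbols knockout arrays, 1 shape per replicate number. Most orange symbols lie left of 0: 40, 35 and 38 of the 45 genes were below the control mean in knockout replicates 1, 2 and 3.

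The 3 knockout arrays were alike in these genes. Averaged over the 45 members, the value relative to the control mean was -0.088, -0.063 and -0.082 for knockout replicates 1, 2 and 3. The control replicates stood at 0.029, -0.0061 and -0.023. The groups did not overlap (knockout -0.078 ± 0.013, control 0 ± 0.027, SD, n = 3), though the gap between control replicate 3 and knockout replicate 2 was narrower than the range of the controls. Control replicate 3 was itself on the low side, with 31 of 45 genes below the control mean against 13 and 21 in control replicates 1 and 2. The highest of the 6 values lay on a control array in 40 genes, and the lowest on a knockout array in 33.

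Origin licensing genes stood lowest as a group. Of 9 genes 8 were below the control mean. The median was -0.12 (fold 0.918). Groups were separate and lower in 6 of 9, against 8.6% of all clusters, and in 5 of 9 after array centring, against 5.76%. None passed over all clusters (adjusted p 0.294 to 0.966, limma). At an unadjusted p under 0.05, 5 were lower, against 6.45% of all clusters. After centring Orc1 and Cdt1 were no longer under that threshold (unadjusted p 0.051 and 0.054, limma), against 4.65% of all clusters that were lower. Gmnn encodes geminin, which binds CDT1 and blocks a further round of licensing. It read 7.53, 7.64 and 7.47 on the control arrays and 7.28, 7.33 and 7.32 on the knockout arrays, given here and below in the order of replicates 1, 2 and 3. Every knockout value of Gmnn was below every control value, a difference of -0.24 (SE 0.053, fold 0.849, adjusted p = 0.294).

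Cdt1, the loading factor that geminin inhibits, was lower as well, at -0.14 (SE 0.051, adjusted p = 0.421), again with separate groups. Cdc6 encodes the ATPase that loads MCM together with CDT1. Its values were 8.38, 8.28 and 8.33 in the controls and 8.2, 8.24 and 8.11 in the knockout arrays. They were separate by a narrow margin, since control replicate 2 and knockout replicate 2 were 0.04 apart, and the difference was -0.15 (SE 0.051, adjusted p = 0.400).

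The 6 subunits of the origin recognition complex did not differ alike. Orc1, the subunit whose abundance changes through the cell cycle, read 9.3, 9.16 and 9.1 in control and 9.01, 9.08 and 8.97 in knockout arrays. The groups of Orc1 came close at control replicate 3 and knockout replicate 2, and overlapped after array centring. Its difference was -0.17 (SE 0.062, adjusted p = 0.419), and -0.11 without control replicate 1. Orc2, a core subunit, read 10.46, 10.47 and 10.42 in control and 10.31, 10.3 and 10.37 in knockout arrays, a difference of -0.12 (SE 0.042, adjusted p = 0.390) with separate groups. Orc3 (-0.09) and Orc6 (-0.09) had overlapping groups, Orc5 (-0.053) had separate groups, and Orc4 had a difference of 0.01 with values of both genotypes mixed. Differences between subunits were not tested.

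**Figure D2:**
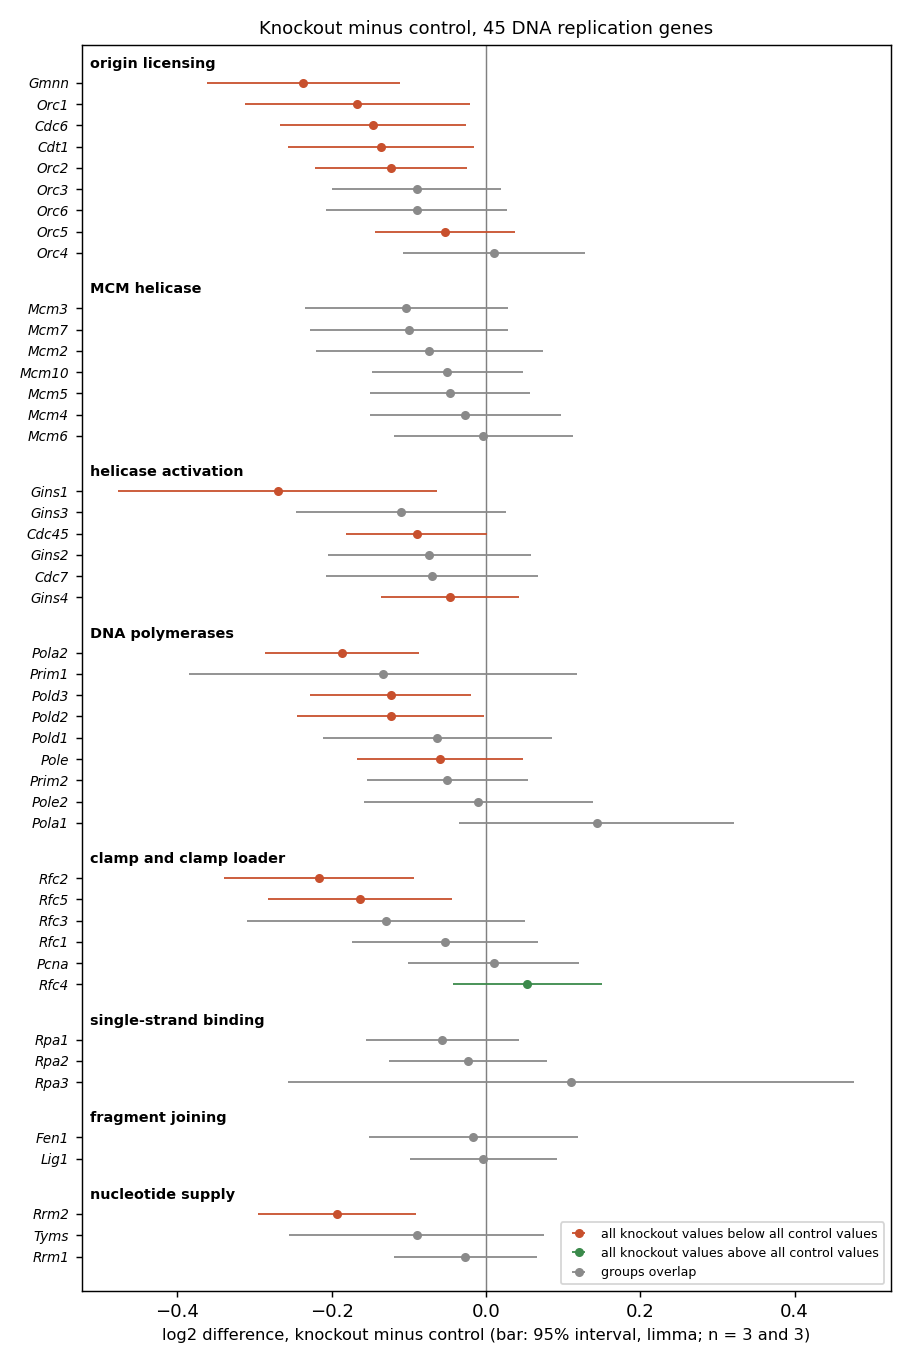
Log2 difference, knockout minus control, of the 45 replication genes (points) with 95% intervals from limma (bars, n = 3 and 3), grouped by role. Orange marks the 16 genes with all knockout values below all control values, green the 1 gene with all above, and grey the 28 with overlapping groups. All 7 intervals in the MCM group include 0, while 5 of 9 in origin licensing do not. Of all clusters, 6.45% were lower and 4.1% higher at an unadjusted p under 0.05.

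The MCM genes, which encode the helicase that licensing loads, showed no gene with separate groups. Of all clusters 8.6% were separate and lower and 6.73% separate and higher, so 0 of 7 is near those shares. All 7 lay below the control mean (6 of 7 after array centring, with Mcm6 at 0.017), with a median of -0.05 and adjusted p-values of 0.557 to 0.987 (limma). At an unadjusted p under 0.05 there were 0, against 6.45% of all clusters lower and 4.1% higher. Mcm3, a helicase subunit, had the smallest p and read 10.37, 10.34 and 10.25 in control and 10.25, 10.27 and 10.13 in knockout arrays. Control replicate 3 of Mcm3 matched knockout replicate 1 and lay below knockout replicate 2, so the groups overlapped. The difference was -0.10 (SE 0.056, adjusted p = 0.557), or -0.06 without knockout replicate 3.

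The other subunits of the helicase ring differed by -0.10 (Mcm7), -0.073 (Mcm2), -0.047 (Mcm5), -0.027 (Mcm4) and -0.0033 (Mcm6), and Mcm10, which helps to open the loaded helicase, by -0.05. Without knockout replicate 3 the value of Mcm7 was -0.058. The lowest bound of any 95% interval in this group was -0.235, for Mcm3, so larger reductions lie outside the intervals of all 7 genes. Averaged over the 7 genes, control replicate 3 (-0.037) lay level with knockout replicates 1 and 2 (-0.035 and -0.037), and knockout replicate 3 was lowest (-0.10). The difference between the licensing group and the MCM group was not tested.

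Promoter sequences of some members show a feature that the choice of genes did not use. E2F factors, which drive S-phase genes, bind a motif that is spelled TTTGGCGC, TTTGCCGC, TTTCGCGC or TTTCCCGC. These 4 words were searched on both strands, counting overlapping matches, in RefSeq promoters of build GRCm38.p6 that run from 250 bases before to 50 bases after a gene's start. Of the 45 members 37 matched an entry by symbol, and 15 of the 37 (40.5%) held at least 1 match, against 2.6% of all 27025 genes with an entry and 2.26% of all 32851 entries of that length. Such a match is a description of letters and not a bound site. The stretches below are the 250 bases before the start, 5′ to 3′ on the strand of the gene, for a pair of licensing genes with separate groups and a pair of MCM genes with overlapping groups, with matches in capitals.
Orc1, chr4:108579204-108579453, + strand: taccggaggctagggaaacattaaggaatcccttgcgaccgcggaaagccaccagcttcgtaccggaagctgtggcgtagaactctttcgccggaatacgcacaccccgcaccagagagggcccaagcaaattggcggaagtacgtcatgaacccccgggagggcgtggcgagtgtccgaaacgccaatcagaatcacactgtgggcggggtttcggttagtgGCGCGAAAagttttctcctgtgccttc
Cdc6, chr11:98907901-98908150, + strand: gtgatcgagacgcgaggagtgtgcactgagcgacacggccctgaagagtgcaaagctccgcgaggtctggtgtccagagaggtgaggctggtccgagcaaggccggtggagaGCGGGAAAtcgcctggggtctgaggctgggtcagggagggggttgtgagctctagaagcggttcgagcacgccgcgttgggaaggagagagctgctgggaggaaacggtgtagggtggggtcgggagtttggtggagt
Mcm5, chr8:75109259-75109508, + strand: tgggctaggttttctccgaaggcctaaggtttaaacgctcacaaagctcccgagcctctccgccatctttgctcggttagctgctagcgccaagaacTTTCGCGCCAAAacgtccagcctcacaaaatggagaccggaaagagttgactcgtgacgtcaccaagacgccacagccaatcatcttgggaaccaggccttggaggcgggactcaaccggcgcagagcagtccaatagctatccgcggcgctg
Mcm6, chr1:128359706-128359955, - strand: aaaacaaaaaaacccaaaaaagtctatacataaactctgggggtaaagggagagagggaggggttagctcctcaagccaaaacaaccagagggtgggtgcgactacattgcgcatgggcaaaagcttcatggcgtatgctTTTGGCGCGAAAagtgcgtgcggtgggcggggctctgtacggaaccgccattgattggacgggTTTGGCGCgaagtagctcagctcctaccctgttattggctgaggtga
Orc1 held 1 match and Cdc6 held 1. Mcm5 held 2 and Mcm6 held 3, in each case with a pair that overlaps on opposite strands as 1 longer run of capitals. The matched members were spread over both outcomes. Among members with a promoter entry, 4 of 11 with separate lower groups (36.4%) held the motif, and 11 of the other 26 did (42.3%). The median difference was -0.10 for the 15 members with a match and -0.063 for the 22 without.

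Among the factors that activate the helicase, all 6 lay below the control mean, also after array centring, with a median of -0.082. Of the 6 genes 3 had separate lower groups, against 8.6% of all clusters, and 2 after centring, against 5.76%. At an unadjusted p under 0.05, 1 was lower, against 6.45% of all clusters. None passed over all clusters (adjusted p 0.381 to 0.721, limma). Gins1, a GINS subunit, had the largest difference of all 45 members. It read 9.28, 9.55 and 9.23 in control and 9.01, 9.15 and 9.09 in knockout arrays. Control replicate 2 stood far above the others, and the difference was -0.27 (SE 0.088, 95% interval -0.476 to -0.0635, adjusted p = 0.381). Without control replicate 2 the difference of Gins1 was -0.17.

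The other 3 GINS genes differed less, by -0.11 (Gins3), -0.073 (Gins2) and -0.047 (Gins4), although the 4 proteins form 1 complex. Without control replicate 3 the value of Gins3 was -0.07. Cdc45, the partner of GINS in the active helicase, had tight values of 10.23, 10.19 and 10.22 against 10.1, 10.14 and 10.13. That made its groups separate at a difference of only -0.09 (SE 0.039, adjusted p = 0.475). Cdc7, the kinase that triggers activation, differed by -0.07 with overlapping groups.

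The polymerase genes were mixed. Of 9 genes 8 were below the control mean (7 of 9 after centring). The median was -0.063, and 4 had separate lower groups, against 8.6% of all clusters. After centring 3 had separate lower groups, against 5.76%. None passed over all clusters (adjusted p 0.294 to 0.973, limma). At an unadjusted p under 0.05, 3 were lower, against 6.45% of all clusters. After centring Pold3 and Pold2 were no longer under that threshold (unadjusted p 0.054 and 0.082, limma), against 4.65% of all clusters that were lower. Pola2, the second subunit of polymerase alpha, read 10.23, 10.26 and 10.19 in control and 10.03, 10.08 and 10.01 in knockout arrays. The gap between the groups of Pola2 was wider than the range within either, a difference of -0.19 (SE 0.043, fold 0.879, adjusted p = 0.294).

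Pola1, the catalytic subunit of the same enzyme and the 1 member on chromosome X, had the opposite sign. It read 8.77, 8.54 and 8.82 in control and 8.88, 8.81 and 8.87 in knockout arrays, a difference of 0.14 (SE 0.076, adjusted p = 0.550). Control replicate 2 was low and the groups overlapped, though they were separate after array centring. Without control replicate 2 the difference of Pola1 was 0.058. The primase subunits that complete this complex differed by -0.13 (Prim1) and -0.05 (Prim2), with overlapping groups. Prim1 varied widely among the controls, from 9.67 to 10.01, and its difference ran from -0.23 without control replicate 2 to -0.053 without knockout replicate 1.

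For polymerase delta, which extends the lagging strand, the accessory subunit genes Pold2 and Pold3 had separate groups. Pold3 read 11.2, 11.09 and 11.13 in control and 11, 11.02 and 11.03 in knockout arrays, a difference of -0.12 (SE 0.044, adjusted p = 0.408). Its knockout values lay within 0.03 of each other, below the lowest control value. Pold2 also differed by -0.12 (SE 0.052, adjusted p = 0.464), while the catalytic subunit Pold1 differed by -0.063 with overlapping groups. Without knockout replicate 3 the difference of Pold2 was -0.077. For polymerase epsilon, which extends the leading strand, Pole differed by -0.06 and Pole2 by -0.01.

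The clamp and clamp loader genes lay on both sides of the control mean, 4 of 6 below it, with a median of -0.092. RFC is the complex that opens the PCNA ring and places it on DNA. None of the 6 passed over all clusters (adjusted p 0.318 to 0.963, limma), and 2 were lower at an unadjusted p under 0.05, against 6.45% of all clusters. Rfc2 read 9.79, 9.89 and 9.73 in control and 9.61, 9.55 and 9.6 in knockout arrays. Its groups were separate, at a difference of -0.22 (SE 0.052, fold 0.861, adjusted p = 0.318). Rfc5 read 11.43, 11.46 and 11.38 in control and 11.34, 11.21 and 11.23 in knockout arrays. Its groups were separate too, although knockout replicate 1 came close to the controls, and the difference was -0.16 (SE 0.051, adjusted p = 0.376).

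Rfc3 (-0.13, or -0.055 without control replicate 1) and the large subunit Rfc1 (-0.053) had overlapping groups. Rfc4 was the 1 member with all knockout values above all control values, at 11.82, 11.8 and 11.87 against 11.79, 11.75 and 11.79. That difference was 0.053 (SE 0.041, adjusted p = 0.700). Pcna, the clamp itself, differed by 0.01 (SE 0.047, 95% interval -0.101 to 0.121), with the values of the genotypes mixed. Its other cluster, listed under the same accessions, differed by 0.0067, and signal from near-identical copies of this gene cannot be told apart here.

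Single-strand binding and fragment joining genes showed no gene with separate groups. Of all clusters 8.6% were separate and lower and 6.73% separate and higher, so 0 among so few genes is near those shares. RPA coats unwound DNA, and Rpa1, its large subunit, read 10, 10.03 and 10 in control and 9.95, 10 and 9.91 in knockout arrays. Knockout replicate 2 equalled a control value, and the difference was -0.057 (SE 0.042, adjusted p = 0.690). Rpa2 differed by -0.023, and Rpa3 by 0.11 with the widest error of all members (SE 0.156), so that the 3 RPA genes had a median of -0.023 and a mean of 0.01. Leaving out 1 array moved the difference of Rpa3 between 0.01 (without knockout replicate 2) and 0.28 (without control replicate 1). The other Rpa3 cluster differed by -0.0033.

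Fen1, the flap endonuclease, read 9.41, 9.31 and 9.21 in control and 9.27, 9.32 and 9.29 in knockout arrays. The knockout values lay inside the control range, at a difference of -0.017 (SE 0.058, adjusted p = 0.948). Lig1, the ligase of replication, differed by -0.0033 (95% interval -0.099 to 0.0923). Both signs turned after array centring, to 0.0033 and 0.017. Of these 5 genes none passed over all clusters and 0 had an unadjusted p under 0.05 (limma). Of all clusters 6.45% were lower and 4.1% higher at that threshold.

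The genes of nucleotide supply were led by Rrm2, which had the smallest p of all 45 members. Ribonucleotide reductase makes the deoxynucleotides for DNA synthesis, and RRM2 is the subunit that cells make in S phase. Rrm2 read 10.23, 10.19 and 10.2 in control and 9.99, 9.98 and 10.07 in knockout arrays. The controls lay within 0.04 of each other and every knockout value was below them, a difference of -0.19 (SE 0.043, 95% interval -0.295 to -0.0913, fold 0.875, adjusted p = 0.294). Rrm1, the large subunit that persists outside S phase, differed by -0.027 (SE 0.040), with overlapping groups. Tyms, which makes thymidylate, differed by -0.09 (SE 0.070), also with overlapping groups.

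**Figure D3:**
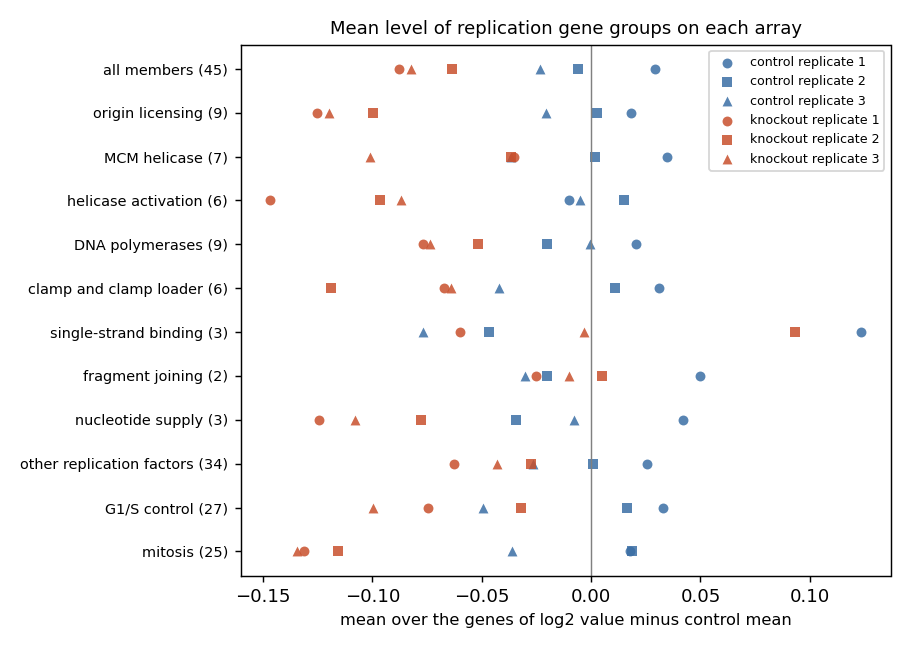
Mean over the genes of each group of the log2 value minus the control mean (horizontal axis), on each of the 6 arrays. Blue symbols are control and orange symbols knockout arrays, with the number of genes in brackets. For all members the knockout arrays lie at -0.088 to -0.063 and the control arrays at -0.023 to 0.029. The genotypes overlap in the MCM, single-strand binding and fragment joining groups, and in G1/S control (genes that control entry into S phase).

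Further genes of the same process were more mixed. Of 34 other replication factors 25 were below the control mean (20 of 34 after centring). The median was -0.038. None passed over all clusters. At an unadjusted p under 0.05, 5 were lower (14.7%, against 6.45% of all clusters) and 1 higher (against 4.1%). Separate lower groups were found in 7 (20.6%, against 8.6% of all clusters), or 3 after centring (against 5.76%). Donson, a factor of helicase activation, had the smallest p at -0.16 (SE 0.043, adjusted p = 0.322), followed by Chtf18, a subunit of an alternative clamp loader, at -0.14 (SE 0.043). Mcm9, a helicase of recombination related to the MCM genes, came next, with all knockout values above the controls (0.15, SE 0.052).

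Of 27 genes that control entry into S phase, 21 were below the control mean, also after centring, and the median was -0.083. None passed over all clusters. At an unadjusted p under 0.05, 2 were lower (7.41%, near the 6.45% of all clusters). They were E2f8, a repressor of the E2F family whose own level peaks in S phase (-0.25, SE 0.084), and E2f5 (-0.13, SE 0.051). E2f7, the close relative of E2f8, was next (-0.14, SE 0.059) with overlapping groups. The mean of this list overlapped between the genotypes, with knockout arrays at -0.10 to -0.032 and control arrays at -0.049 to 0.033.

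Genes of mitosis, the phase that follows, had a larger share of separate groups than the replication genes. Of 25 genes 16 had separate lower groups (64%, against 35.6% of the replication genes and 8.6% of all clusters). At an unadjusted p under 0.05, 15 were lower (60%, against 6.45% of all clusters). None passed over all clusters. The median was -0.13, and the 3 smallest p-values were those of Bub1b (-0.37), Cenpa (-0.33) and Kif20a (-0.21). The difference between the lists was not tested.

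**Figure D4:**
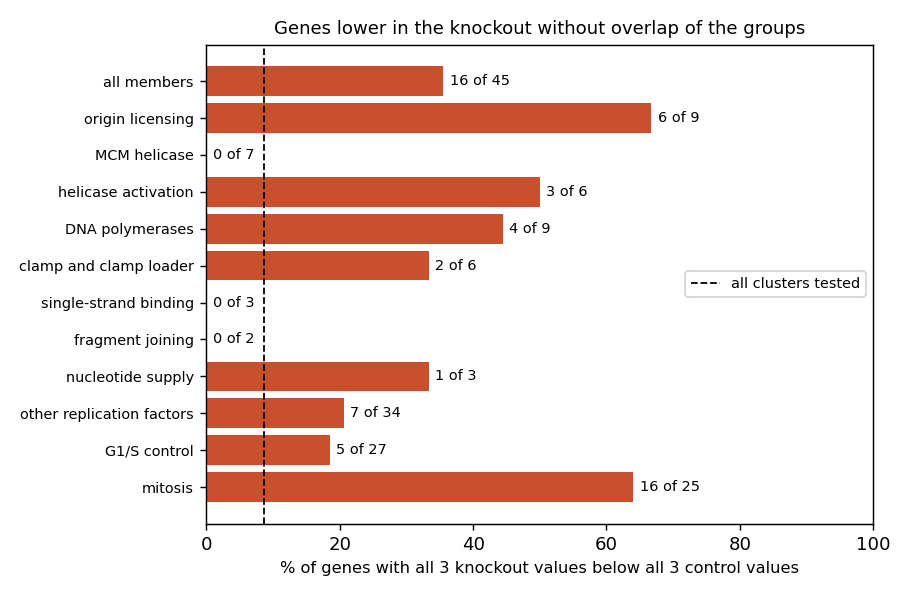
Percentage of genes in each group with all 3 knockout values below all 3 control values (bars, with counts), and the share over all clusters tested (dashed line, 8.6%). Origin licensing (6 of 9) and mitosis (16 of 25) have the longest bars, and the MCM, single-strand binding and fragment joining groups have 0.

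Markers of the cells that make up the testis differed in level between the same arrays, and none passed over all clusters. Relative to the control mean, 15 markers of pachytene spermatocytes averaged -0.44 to -0.22 in the knockout and -0.27 to 0.18 in the control arrays, with 14 of 15 below the control mean and the groups overlapping. The 16 spermatogonial markers averaged -0.078 to -0.044 against -0.049 to 0.029, with 12 of 16 below and the groups again overlapping. These markers differed in both directions. Separate lower groups were found in 6 (among them Dmrtb1 at -0.36 and Sall4 at -0.30), against 8.6% of all clusters. Separate higher groups were found in 2, Gfra1 (0.39) and Etv5 (0.25), against 6.73%. After centring these counts were 4 and 2, against 5.76% and 11.1%. Etv5 has 2 clusters, and only the one with the highest mean is given here. The 14 Sertoli cell markers averaged 0.048 to 0.11 against -0.033 to 0.019, with 12 of 14 above. The 11 macrophage markers averaged 0.11 to 0.15 against -0.063 to 0.094, with 11 of 11 above. Leydig markers (4 of 5 above) and peritubular and endothelial markers (8 of 10 below, 3 of 10 after centring) overlapped between the genotypes. The part of these shifts in the lower values of the replication genes was not tested.

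The genes whose pattern over the 6 arrays was most like the mean of the 45 members were Zfp664 (Pearson r 0.997), Emc2 (0.995), Epn2 (0.993), Rab22a (0.99) and Nmd3 (0.988), out of 19893 other genes. These correlations rest on 6 arrays and on a profile that was itself averaged over the members, and they carry no p. They do not measure the size of a difference. In the same order, these genes differed by -0.09, -0.027, -0.15, -0.15 and -0.037. None passed over all clusters (adjusted p 0.347 to 0.848, limma). Among the members, Orc1 (0.956) followed the mean most closely, and Rfc4 (-0.7), Pola1 (-0.599) and Pcna (-0.405) ran against it.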

How the data were processed

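Per the submitters' processing notes, the authors made the deposited values with RMA in Affymetrix Expression Console, which leaves 1 log2 value per transcript cluster and array. The sources used here do not give versions, probe annotation or genome build. RMA includes quantile normalisation, which would hide any shift shared by most transcripts. The table used here holds values only, with no scan date or slide, so no batch could be examined.

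Of 35556 rows, 21789 with 1 gene symbol in the platform annotation were tested, and 1621 with several symbols and 12146 with none were left out. The highest share of identical values between a pair of arrays was 4.12%. The genotypes were compared by limma (version 3.58.1, under R 4.3.3), using lmFit then eBayes without covariates on 3 arrays per group, with Benjamini-Hochberg adjustment over all tested clusters and a threshold of 0.05. Intervals are 95% intervals from the moderated fit. List medians and means are descriptions. Chromosomes came from the gene table of GRCm38.p6, in which all 45 members matched, and promoters from RefSeq. The script was tested on simulated data.

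Members given with every array value were the 10 with the smallest p and the first of each role group by p. Other lists are represented by their 3 smallest p-values, with markers as list values. The spermatogonial markers named and genes besides these, with the array values of Cdc45, Pola1 and Rfc4, were chosen after their values were seen. The members and lists were chosen with earlier results of these data known. Same-numbered samples were not paired (correlations of their deviations 0.166, -0.0536 and 0.17). The targeted gene is not reported here.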

Additional observations from a re-analysis of the deposited data

How the results depend on the processing

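No member was called under any setting tried (limma, smallest adjusted p 0.129, with an intensity trend and robust prior). The members' median difference stayed between -0.08 and -0.053, the latter with array median centring. The count of members with separate lower groups was 16, or 13 with centring, and 18 to 23 with 1 array left out, where all clusters rose to 12.1% to 14.3% as well. That of separate higher groups was 1 (against 6.73% of all clusters), or 2 with centring (against 11.1%). With 1 array left out it was 1 to 3. It was 3 when control replicate 1 was dropped, and 2 when control replicate 3 or else knockout replicate 2 was. The share over all clusters rose in every leave-out as well, to as much as 13.1% without knockout replicate 2. Against clusters at least as bright as the dimmest member, a background chosen after seeing the data, 10.9% were lower with separate groups.

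The 3 clusters called in all became 6 without the dimmest clusters, 0 with all rows tested and 7 with the trend and robust prior. They became 6 at an adjusted p under 0.1, and 0 with the replicate number as a block (replicate block). With that block 8 members were lower at an unadjusted p under 0.05 against 12, and 6.57% of all clusters against 6.45%. With 1 array left out the clusters called were 0 to 52: leaving out control replicate 1 gave 52, control replicate 2 gave 1, and any other array 0. The unadjusted count of 12 members was 7 when either replicate 1 was dropped, 8 with centring or without knockout replicate 3, and 10 to 15 in the other leave-outs. Of all clusters, 4.41% to 6.15% were lower at an unadjusted p under 0.05 with 1 array left out, and 4.65% with centring.

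Signs turned in 7 genes near 0. With centring the values were 0.0033 (Fen1), 0.01 (Pole2), 0.017 (Lig1) and 0.017 (Mcm6). With 1 array left out they ran from -0.062 to 0.013 (Mcm4), -0.067 to 0.033 (Fen1), -0.0083 to 0.042 (Pcna), -0.022 to 0.042 (Orc4), -0.067 to 0.043 (Pole2), -0.023 to 0.017 (Lig1) and -0.032 to 0.038 (Mcm6). The cause of these changes was not tested.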
